A study of Mus musculus with 5 samples.

Results

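Natural killer cells are lymphocytes that kill infected or altered cells without prior priming. A set of 10 genes of these cells was described, out of 78334 genes in the deposited count table. The set holds 6 surface receptors (Klrb1c, Klrb1b, Klrb1f, Klrd1, Klrk1 and Ncr1), 3 genes of the killing granules (Nkg7, Gzma and Prf1) and the transcription factor Eomes. They were chosen by name with their counts in these 5 libraries already known, because the CPM of Klrb1c had stood out beside genes of the epididymis. The levels of the set are therefore a description and carry no test of that pattern. The question was whether the other 9 genes accompany Klrb1c.

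The 5 libraries hold RNA labelled as visceral adipose tissue of C57BL/6 mice, which were male. The control group (1 library, control 1) came from standard chow and vehicle. The diabetes group (2 libraries, diabetes 1 and 2) received vehicle after 1 dose of 70 mg/kg streptozotocin, which destroys pancreatic beta cells, at 2 days of age, and a fat-rich diet (60% of energy) for 8 weeks from week 3. The curcumin-treated group (2 libraries, curcumin-treated 1 and 2) had the same streptozotocin and diet, and 50 mg/kg oral curcumin daily for 28 days from 11 weeks of age. As the control had neither streptozotocin nor the fat-rich diet, the contributions of these 2 agents cannot be told apart. Whether 2 libraries of a group stem from different mice is not stated, so p-values reflect how far these libraries differ, and part of that may be technical.

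Total counts ran from 25378046 to 42422890 per library, and levels are given as CPM, counts scaled to the library total. A count of 0 allows up to 3 counts, which is 0.0707 CPM in curcumin-treated 2, the deepest library, and 0.108 to 0.118 CPM in the others. The tissue label was checked with 14 adipocyte and 18 epididymal epithelium genes. Adipocyte genes summed to 33026 CPM in diabetes 2, to 3955 in curcumin-treated 1 and to 142 to 591 in the other 3 libraries, and 4 of the 14 were at 0 in diabetes 1. Epididymal genes summed to 79945 CPM in control 1, 77265 in diabetes 1, 115984 in curcumin-treated 2, 6019 in curcumin-treated 1 and 0.394 in diabetes 2. Without Crisp1, a secreted epididymal protein, the sum in curcumin-treated 1 was 53.5 CPM. The same library held the highest level of each of 10 smooth muscle genes. Control 1, diabetes 1 and curcumin-treated 2 are called the epididymis-rich libraries below. This name rests on the data and describes libraries, not groups of the study.

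The receptors of the Klrb1 family are C-type lectins encoded side by side in the natural killer gene complex, together with their Clec2 ligands. Klrb1c encodes the activating receptor NKR-P1C, whose NK1.1 epitope is the usual mark of natural killer cells in C57BL/6 mice. Klrb1b encodes an inhibitory receptor that recognises the Clec2d product, Klrb1f a further receptor, and Klrb1a the receptor NKR-P1A. In a natural killer cell these receptors are found beside CD94 (Klrd1), NKG2D (Klrk1) and NKp46 (Ncr1), and beside granules with granzyme A (Gzma) and perforin (Prf1). In bulk tissue, fewer cells of a type and less RNA per cell cannot be told apart.

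Klrb1a was the Klrb1 family gene whose levels went with those of Klrb1c, so the stretches before the start sites of the 2 genes are shown, with that of Klrb1b, which did not go with them. The stretch of Klrb1a is cut at the base aligned with the last base before the Klrb1c start. It holds the first 210 of the 250 bases before its own start. The sequences are from RefSeq on GRCm38.p6, on the minus strand, and capitals mark the longest run of identical letters that Klrb1c and Klrb1a share within the windows. They are chr6:128788642-128788856 for Klrb1c, chr6:128622975-128623184 for Klrb1a and chr6:128826316-128826530 for Klrb1b.
Klrb1c: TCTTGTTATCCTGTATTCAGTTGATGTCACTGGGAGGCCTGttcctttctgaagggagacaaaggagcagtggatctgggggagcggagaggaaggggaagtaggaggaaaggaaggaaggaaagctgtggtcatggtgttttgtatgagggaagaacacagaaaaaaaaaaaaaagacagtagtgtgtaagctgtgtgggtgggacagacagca
Klrb1a: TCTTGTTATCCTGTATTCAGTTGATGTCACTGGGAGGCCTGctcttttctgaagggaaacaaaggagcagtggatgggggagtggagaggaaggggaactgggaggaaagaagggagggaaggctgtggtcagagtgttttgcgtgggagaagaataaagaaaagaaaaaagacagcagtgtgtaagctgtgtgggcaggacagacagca
Klrb1b: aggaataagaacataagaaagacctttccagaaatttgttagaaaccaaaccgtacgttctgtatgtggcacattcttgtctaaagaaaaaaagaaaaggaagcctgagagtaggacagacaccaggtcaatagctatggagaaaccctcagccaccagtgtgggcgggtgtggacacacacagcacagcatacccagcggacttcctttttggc

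The shared run is at least 41 bases long. It begins 215 bases before the start of Klrb1c and 250 bases before that of Klrb1a, which is the edge of the RefSeq window, so the run and the alignment may extend further upstream. It occurred in 2 of 32851 windows of 300 bases around gene starts (0.00609%, both strands searched), those of Klrb1c and Klrb1a. Over the full windows, a local alignment of Klrb1c with Klrb1a covered 265 columns, of which 236 were identical (89.1%), 24 were mismatches and 5 were gaps. The alignment with Klrb1b covered 82 columns with 61 identical, and those with Klrb1f and Klrb1 covered 25 and 9 columns. Among the windows of 27024 other genes, that of Klrb1a gave the highest alignment score with Klrb1c (384), and the next, Slc25a14, scored 84. These matches describe letters of the reference and do not show that any factor binds there.

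Klrb1c was abundant in the epididymis-rich libraries and scarce in the other 2. It had 5871 counts in control 1, 5176 in diabetes 1 and 12675 in curcumin-treated 2, but 44 in diabetes 2 and 30 in curcumin-treated 1. As levels, the high libraries had 217 CPM (95% exact Poisson interval 211.7 to 222.9), 203 CPM (197.9 to 209.0) and 299 CPM (293.6 to 304.0), and the low ones 1.73 CPM (1.26 to 2.33) and 1.08 CPM (0.728 to 1.54). In the diabetes group and in the curcumin-treated group, 1 library was thus high and the other low. The 3 high libraries come from 3 different groups of the study.

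The other 9 genes did not share this order. None of the 9 had control 1, diabetes 1 and curcumin-treated 2 all above diabetes 2 and curcumin-treated 1, an order met by 10.3% of the 53895 genes with a count and by 21.7% of the 18453 genes with a mean of at least 1 CPM. In 7 of the 9 (Klrb1b, Klrk1, Ncr1, Nkg7, Gzma, Prf1 and Eomes) the order was the opposite, with diabetes 2 and curcumin-treated 1 above the 3 epididymis-rich libraries. That order was met by 15.1% of genes with a count and 23.8% of those with a mean of at least 1 CPM. For Klrb1b it rested on 0.971 CPM in curcumin-treated 1 against 0.966 in curcumin-treated 2. The Poisson intervals of diabetes 2 and curcumin-treated 1 lay above those of the 3 epididymis-rich libraries for Gzma and Eomes. For the rest of the 7, some of these intervals overlapped. Each of the 9 was highest in diabetes 2, whereas Klrb1c was highest in curcumin-treated 2.

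Summed over the 9 genes, diabetes 2 had 463 counts, curcumin-treated 1 had 289 and curcumin-treated 2 had 282, while diabetes 1 had 104 and control 1 had 57. These sums were 18.2, 10.4, 6.65, 4.09 and 2.11 CPM in that order, and the 2 libraries with the lowest sums were both rich in Klrb1c. For each count of the 9 genes together, Klrb1c had 103 counts in control 1, 49.8 in diabetes 1 and 44.9 in curcumin-treated 2, against 0.0950 in diabetes 2 and 0.104 in curcumin-treated 1. Klrb1c thus made up 97.8% to 99.0% of the counts of the 10 genes in the epididymis-rich libraries and 8.68% to 9.40% in the other 2. Of the 10 genes, 5 were at 0 in control 1, 4 in diabetes 1 and 1 in curcumin-treated 1, and none was at 0 in diabetes 2 or curcumin-treated 2. Low counts were scarce over the whole table in control 1 and diabetes 1, as given below.

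**Figure D1:**
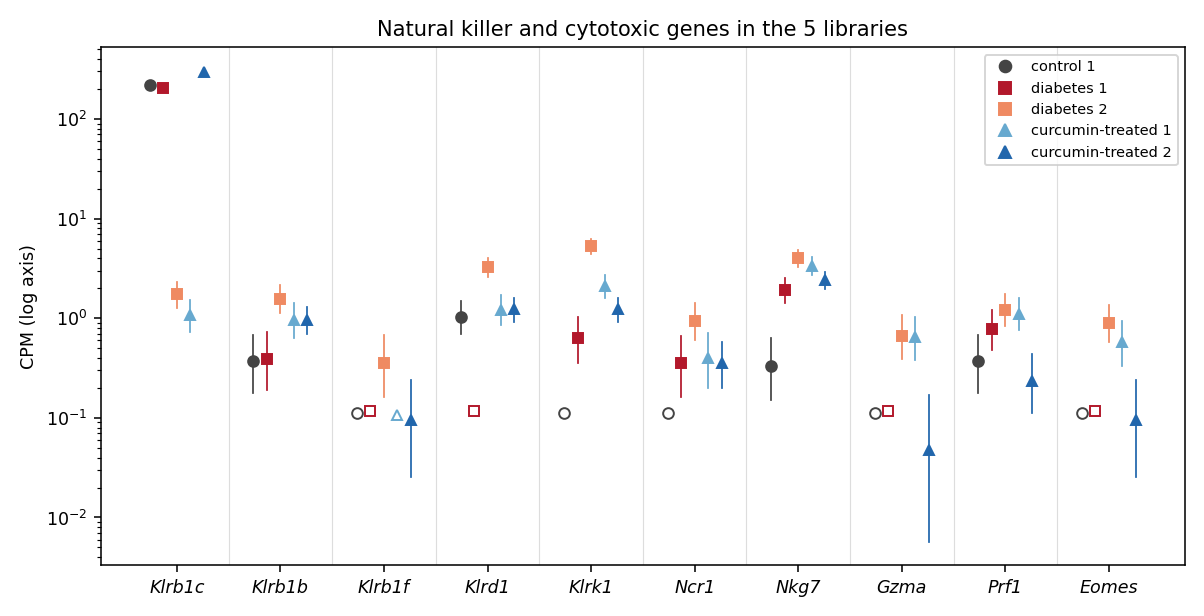
Level of each of the 10 genes (CPM, log axis) in the 5 libraries. Filled symbols are measured values with 95% exact Poisson intervals, which cover counting error alone, and open symbols are libraries at 0 drawn at the level of 3 counts. Klrb1c lies between 203 and 299 CPM in 3 libraries, while no other gene exceeds 5.28 CPM.

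**Figure D2:**
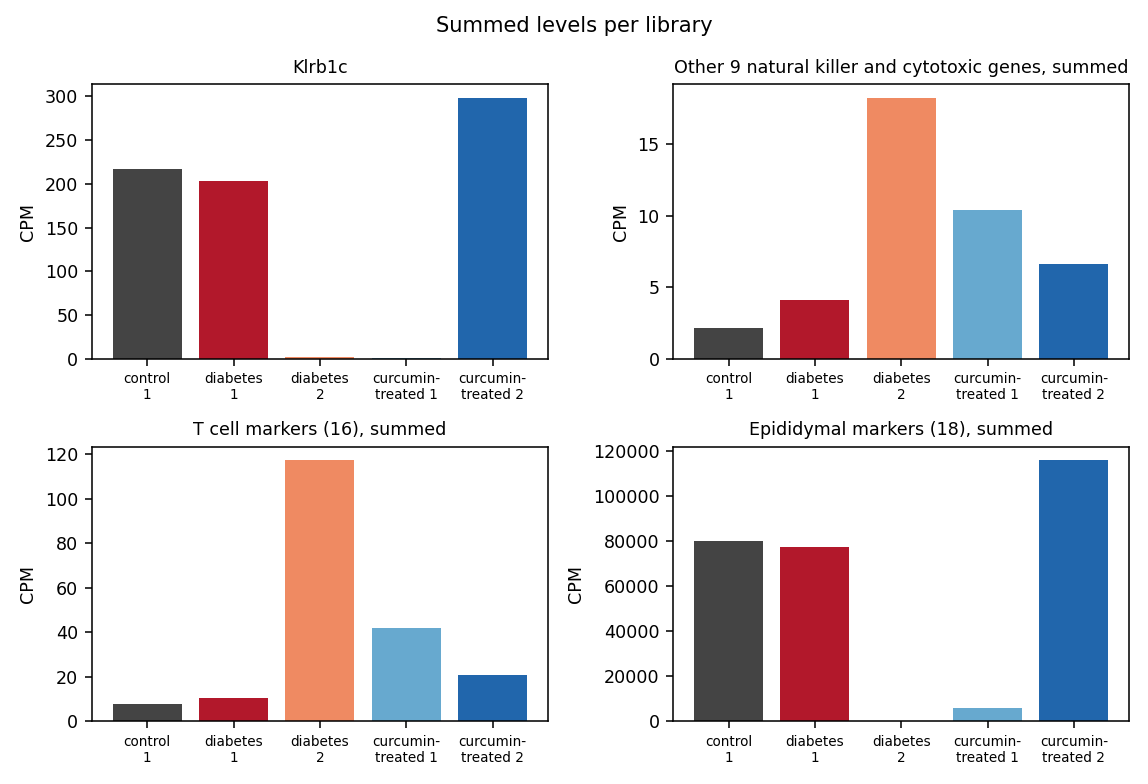
Summed levels (CPM, linear axes from 0 that differ between panels) of Klrb1c, of the other 9 genes, of 16 T cell markers and of 18 epididymal markers, with 1 bar per library. Klrb1c is high in the libraries with high epididymal sums, and the other 9 genes reach their highest sum, 18.2 CPM, in diabetes 2.

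Within the Klrb1 family, Klrb1b, the inhibitory receptor, had 10 counts each in control 1 and diabetes 1, 41 in curcumin-treated 2, 40 in diabetes 2 and 27 in curcumin-treated 1. Its levels in these libraries were 0.370, 0.393, 0.966, 1.58 and 0.971 CPM. Curcumin-treated 1 and 2 were alike, and the 2 libraries with 10 counts were the lowest. The ratio of Klrb1c to Klrb1b counts was 587 in control 1, 518 in diabetes 1 and 309 in curcumin-treated 2, against 1.10 in diabetes 2 and 1.11 in curcumin-treated 1. Klrb1f had 9 counts in diabetes 2 and 4 in curcumin-treated 2 and was at 0 in the other 3 libraries. Its highest level was 0.355 CPM, with an interval of 0.162 to 0.673.

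Klrb1a, which is not among the 10 genes, had 1505 counts in control 1, 1625 in diabetes 1 and 2952 in curcumin-treated 2, but 18 in diabetes 2 and 3 in curcumin-treated 1. Its levels were 55.7, 63.8 and 69.6 CPM in the high libraries and 0.709 and 0.108 CPM in the low ones, and the same 3 libraries were high as for Klrb1c. Klrb1c had 3.90, 3.19, 2.44 and 4.29 counts for each Klrb1a count in control 1, diabetes 1, diabetes 2 and curcumin-treated 2. In curcumin-treated 1, 30 counts of Klrb1c stood against 3 of Klrb1a. Klrb1, the last family gene measured, had 4 counts in curcumin-treated 1, 7 in curcumin-treated 2 and 0 in the others. Of the 5 family genes, only Klrb1a thus shared the order with Klrb1c, which defines it. This order was met by 10.3% of genes with a count and by 21.7% of those with a mean of at least 1 CPM.

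Per kilobase of annotated exon, where genes can be compared, Klrb1c stood at 73.4 CPM per kb in control 1, 68.7 in diabetes 1 and 101 in curcumin-treated 2. Klrb1a stood at 34.9 to 43.6 CPM per kb in these libraries, and Klrb1b at 0.166 to 0.434. In diabetes 2, Klrb1b (0.707 CPM per kb), Klrb1c (0.586) and Klrb1a (0.445) were of similar level. The highest of the set per kilobase in diabetes 2 was Nkg7 at 4.4, followed by Klrd1 at 2.55, so Klrb1c did not lead there.

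**Figure D3:**
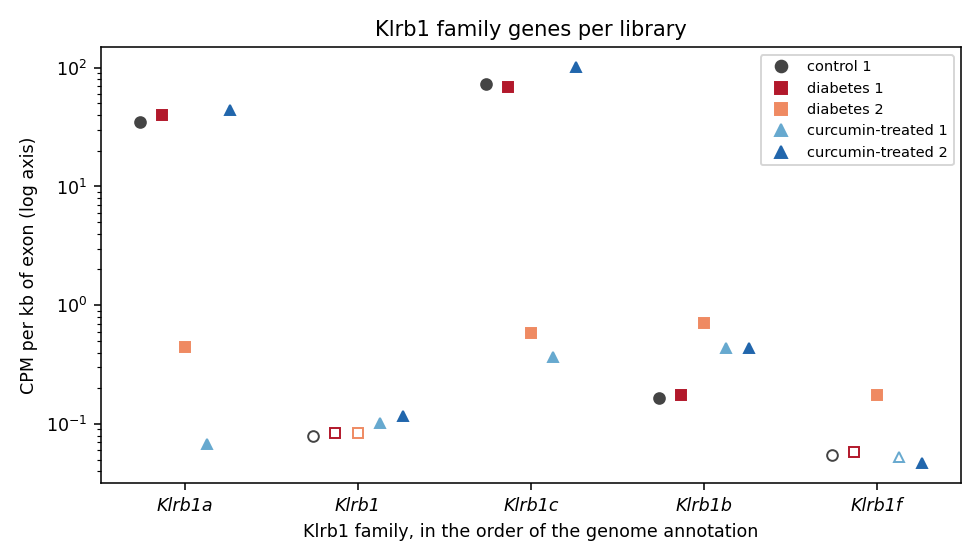
Klrb1 family genes in the order of the genome annotation, as CPM per kb of exon (log axis) in each library, with open symbols at the level of 3 counts for libraries at 0. Klrb1c and Klrb1a are both high in control 1, diabetes 1 and curcumin-treated 2, and Klrb1b, between 0.166 and 0.707, is not.

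The high genes were not a run of neighbours. In the order of genes in RefSeq, Klrb1a lies 7 genes before Klrb1c, Klrb1 1 gene before it, Klrb1b 2 genes after it and Klrb1f 15 genes after it. Of the 5 genes on each side of Klrb1c, 6 could be matched to the table by symbol. Among them Clec2h, a ligand-like lectin gene 2 genes before Klrb1c, had the order of Klrb1c at low counts, with 20 in control 1, 49 in diabetes 1 and 32 in curcumin-treated 2 against 0 in diabetes 2 and 2 in curcumin-treated 1. The pseudogene Gm5884 had 378 to 787 counts with the highest in diabetes 2, BC035044 had 0 to 36, and the pseudogene Clec2j was at 0 throughout.

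Reads of near-identical family genes can be assigned to the wrong member, and this was examined on the GENCODE transcripts. Of the 3103 windows of 150 bases, the read length, over the Klrb1c transcripts, none was identical to a stretch of Klrb1a or Klrb1b. At 100 bases 9 of 3053 windows (0.295%) were shared with Klrb1a, and at 50 bases 107 of 3003 (3.56%) with Klrb1a and 74 with Klrb1b. The gene Gm44511 overlaps 413 of the 2961 exon bases of Klrb1c (13.9%) and 599 of the 2228 of Klrb1b (26.9%) on the same strand, and it had 0 counts in the 5 libraries together. The strand setting and the treatment of overlapping genes used for the counting were not stated in the sources at hand.

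Klrd1, the CD94 chain that pairs with NKG2 proteins, had 83 counts in diabetes 2, 34 in curcumin-treated 1, 52 in curcumin-treated 2, 28 in control 1 and 0 in diabetes 1. The levels in this order of libraries were 3.27, 1.22, 1.23, 1.04 and 0 CPM, so that the 2 diabetes libraries held the highest and the lowest. Klrk1, the NKG2D receptor for stress-induced ligands, had 134 counts in diabetes 2, 58 in curcumin-treated 1, 52 in curcumin-treated 2, 16 in diabetes 1 and 0 in control 1. Its levels in this order were 5.28, 2.09, 1.23, 0.629 and 0 CPM, and 5.28 CPM was the highest level of any of the 9 genes. Ncr1, the NKp46 receptor, had 24 counts in diabetes 2, 15 in curcumin-treated 2, 11 in curcumin-treated 1, 9 in diabetes 1 and 0 in control 1, or 0.946, 0.354, 0.395, 0.354 and 0 CPM. Of its 4 libraries with counts, the interval of diabetes 2 (0.606 to 1.41 CPM) lay just above that of curcumin-treated 2 (0.198 to 0.583) and overlapped those of the other two.

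The granule genes were low throughout. Nkg7, a membrane protein of cytotoxic granules, had 102 counts in diabetes 2, 94 in curcumin-treated 1, 102 in curcumin-treated 2, 49 in diabetes 1 and 9 in control 1. Its levels in this order were 4.02, 3.38, 2.40, 1.93 and 0.333 CPM, with control 1 below the other 4 libraries. Prf1, which encodes the pore-forming perforin, had 31 counts each in diabetes 2 and curcumin-treated 1, 20 in diabetes 1 and 10 each in control 1 and curcumin-treated 2. These were 1.22, 1.11, 0.786, 0.370 and 0.236 CPM, and curcumin-treated 2, the library with the most Klrb1c, had the lowest Prf1 level. Gzma, which encodes a granule protease, had 17 counts in diabetes 2, 18 in curcumin-treated 1, 2 in curcumin-treated 2 and 0 in the others, a highest level of 0.670 CPM. Eomes, a factor of natural killer cell maturation, had 23, 16, 4 and 0 counts there, a highest level of 0.906 CPM. For Gzma and Eomes, the 2 libraries with more than 4 counts were diabetes 2 and curcumin-treated 1.

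A 0 among such low counts may stand for RNA that was missed or for RNA that was absent. In curcumin-treated 2, 3678 genes had between 15 and 40 counts once scaled to 25000000 in all. Diabetes 1 was at 0 for 27.3% of them, diabetes 2 for 21.3%, control 1 for 9.76% and curcumin-treated 1 for 8.32%. These genes were picked by their level in an epididymis-rich library, and tissue content differs between the libraries. The shares at 0 therefore cannot tell missed RNA from absent RNA. The limit of 3 counts for a 0 covers counting error alone, and the reads carry no molecular identifiers.

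The wider natural killer lists held 64 genes with counts: 29 receptors, 13 cytotoxic effectors, 10 transcription factors and 12 signalling adaptors, of which 7 belong to the 10 genes. Of the 64, 40 were highest in diabetes 2, 15 in curcumin-treated 1, 4 in curcumin-treated 2, 3 in diabetes 1 and 2 in control 1. In control 1, 25 of the 64 were at 0 and in diabetes 1, 34, against 0, 3 and 3 in diabetes 2, curcumin-treated 1 and curcumin-treated 2. Control 1 and diabetes 1 also had the fewest genes of any kind with 1 to 5 counts, 4216 and 1292 against 8960 to 19751 in the others. The zeros are thus not particular to natural killer genes. The order of Klrb1c was met by 2 of the 64, against 10.3% of all genes with a count, and the opposite order by 34, against 15.1%. Neither share was tested.

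Those 2 genes were Zap70 and Cd160, the latter named after its values were seen. Zap70, the kinase that relays signals of T cell and natural killer cell receptors, had 36.2 CPM in control 1, 31.3 in diabetes 1 and 42.3 in curcumin-treated 2 against 2.36 in diabetes 2 and 2.77 in curcumin-treated 1. Its counts in this order were 978, 797, 1794, 60 and 77. Cd160, a membrane-anchored receptor, spanned a narrower range, with 2.41, 2.67 and 1.89 CPM in the same 3 libraries and 0.749 and 1.47 CPM in diabetes 2 and curcumin-treated 1.

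Among the receptors with the highest levels, Slamf7 had 24.6 CPM in diabetes 2 and 0 to 4.03 in the others. Il2rb, a chain of the interleukin 2 and 15 receptors, had 7.41 CPM in diabetes 2 and 0.629 to 3.95 in the others. Itga2, an integrin that platelets and other cells also carry, had 54.7 CPM in curcumin-treated 1 and 1.18 to 2.33 in the others. Of the effectors, the chemokine Ccl5 had 11.5 CPM in diabetes 2 and 13.3 in curcumin-treated 1 against 2.37 to 4.71 in the epididymis-rich libraries, and the granule proteoglycan Srgn ran from 21.7 CPM in curcumin-treated 2 to 80.8 in control 1.

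The adaptor Tyrobp, shared with myeloid cells, had 180 CPM in diabetes 2 and 6.29 to 25.7 in the others, and Fcer1g had 105 CPM there and at most 32.5 in the others. Of the transcription factors, Zeb2 had 245 CPM in diabetes 2 and 4.05 to 37.5 in the others. Hopx was low in diabetes 2 (3.63 CPM) and at 49.5 to 63.0 CPM in the rest, and Id2 was highest in curcumin-treated 1 (130 CPM). Many of these genes are also expressed by myeloid or other cells.

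Most markers of other leukocytes and of adipocytes had the library order found for 7 of the 9 genes. The opposite order to that of Klrb1c was met by 14 of 16 T cell, 8 of 10 pan-leukocyte, 9 of 10 macrophage, 5 of 6 B cell and 14 of 14 adipocyte genes. Over all genes with a count the share was 15.1%, and over genes with a mean of at least 1 CPM it was 23.8%. The 16 T cell genes summed to 117 CPM in diabetes 2, 41.7 in curcumin-treated 1, 20.8 in curcumin-treated 2, 10.6 in diabetes 1 and 7.92 in control 1. Without Il7r, which had 79.4 CPM in diabetes 2, their sum was 37.9 CPM there and 37.7 CPM in curcumin-treated 1. The 10 macrophage genes summed to 2230 CPM in diabetes 2 and 151 to 438 CPM in the others. The part of each of these cell types in the levels of the 9 genes was not tested.

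Of the 18 epididymal genes, 17 had the order of Klrb1c, Crisp1 being the exception. The epididymis-rich libraries were named from the sums of these same 18 genes, so this count is a description and no test. The order was met by 10.3% of genes with a count and by 21.7% of those with a mean of at least 1 CPM. Median levels over the 18 epididymal genes were 2094 CPM in control 1, 1987 in diabetes 1 and 1882 in curcumin-treated 2 against 1.94 in curcumin-treated 1 and 0 in diabetes 2. Their part in the Klrb1c level was not tested. In these 3 libraries the other 9 genes of the set had 57, 104 and 282 counts together, and 4 of the 9 (Klrb1b, Klrd1, Nkg7 and Prf1) were detected in control 1, 5 (Klrb1b, Klrk1, Ncr1, Nkg7 and Prf1) in diabetes 1 and 9 in curcumin-treated 2.

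The genes with profiles most like that of Klrb1c were searched over the 5 libraries among 18452 genes with a mean of at least 1 CPM. Likeness was the root mean square difference of log2(CPM + 1), with each gene centred on its own mean. The 10 closest were ENSMUSG00000130019 (0.17), Tecta (0.17), 2810459M11Rik (0.25), Defb29 (0.26), Adgrg2 (0.28), Defb19 (0.29), Gm3428 (0.32), Lingo1 (0.34), Gm11728 (0.34) and Kcnh3 (0.38). The next, Serpinf2, was also at 0.38. Defb29 and Defb19 are beta-defensins, and Adgrg2 is an adhesion receptor known from the epididymis and efferent ducts. Tecta, a protein of the inner ear's tectorial membrane, had 75.4 CPM in control 1, 89.8 in diabetes 1 and 122 in curcumin-treated 2 against 0.315 in diabetes 2 and 0 in curcumin-treated 1. No gene of the natural killer lists was among the 10. List genes with a mean under 1 CPM, such as Klrb1b and Ncr1, were not searched. Those of a few CPM span too narrow a range for so small a distance, whatever their order. With a prior of 0.5 CPM in place of 1, 3 of the 10 genes were kept, and again none of the 10 closest was from these lists.

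Klrb1a ranked 37 of the 18452 (0.56) and Zap70 ranked 320 (1.60). Epididymal genes with the smallest distances were Lcn12, ranked 63, Ros1, ranked 83, and Lcn6, ranked 95. The 18 epididymal genes reached as far as rank 17535 (Crisp1), and Gpx5, which had the order of Klrb1c, ranked 11042. Of the set, 3 genes had a mean of at least 1 CPM beside Klrb1c: Klrd1 ranked 14328 (3.71), Nkg7 14766 (3.76) and Klrk1 16186 (4.01). With 5 libraries no correlation was computed. The ranks describe these libraries, 3 of which share high epididymal counts. They depend on the level of a gene as well as on its library order.

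**Figure D4:**
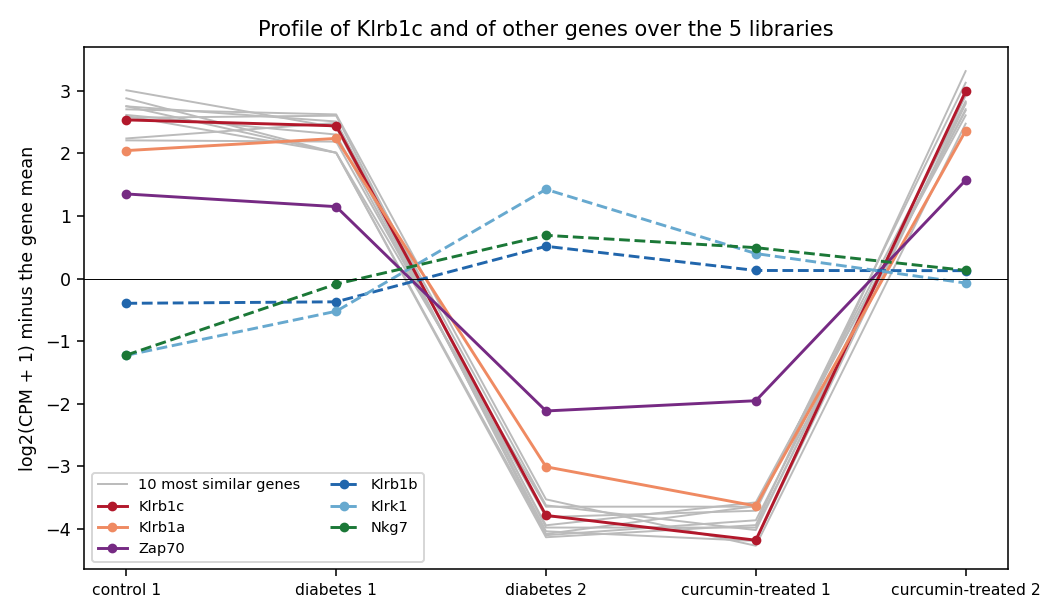
Profiles over the 5 libraries as log2(CPM + 1) minus the mean of each gene, with lines that join the values of 1 gene. The 10 most similar genes (grey), Klrb1c, Klrb1a and Zap70 are high in control 1, diabetes 1 and curcumin-treated 2, and Klrb1b, Klrk1 and Nkg7 (dashed) are not.

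The design compares curcumin-treated with untreated diabetes, and each of these with the control. For the curcumin comparison no change was detected in the set. Levels of Klrb1c were 150 ± 211 CPM with curcumin and 103 ± 143 CPM without (SD, n = 2 each), so the spread within each group exceeded the difference between them. The libraries of the 2 groups overlapped for each of the 10 genes, whereas they did not overlap for 27.6% of the 29855 genes tested.

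The fit of all 5 libraries tested 9 of the 10 genes, as Klrb1f had too few counts. The log2 fold change of Klrb1c was 0.74 ± 2.49 (SE), with an adjusted p of 0.971 (edgeR quasi-likelihood test, two-sided, Benjamini-Hochberg over all tested genes). The other 8 had negative fold changes, from −0.09 ± 1.26 for Klrb1b to −0.95 ± 1.34 for Klrk1, with adjusted p of 0.917 or more. Their SEs exceeded the fold changes. The median over the 9 was −0.52, and over all tested genes 0.05. No gene was called by edgeR in this comparison (0.0%), and 696 had an unadjusted p under 0.05. The smallest adjusted p was 0.852.

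Single libraries set the direction. Without curcumin-treated 2 the fold change of Klrb1c was −6.59, and without diabetes 1 it was 6.43. Without diabetes 2, the fold changes of Klrk1 (1.46), Ncr1 (0.17), Nkg7 (0.66), Klrb1b (1.39), Klrd1, Gzma and Eomes turned positive, and that of Prf1 stayed negative. For Klrd1, Gzma and Eomes the remaining diabetes library is at 0, so those fitted values depend on the prior count.

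**Figure D5:**
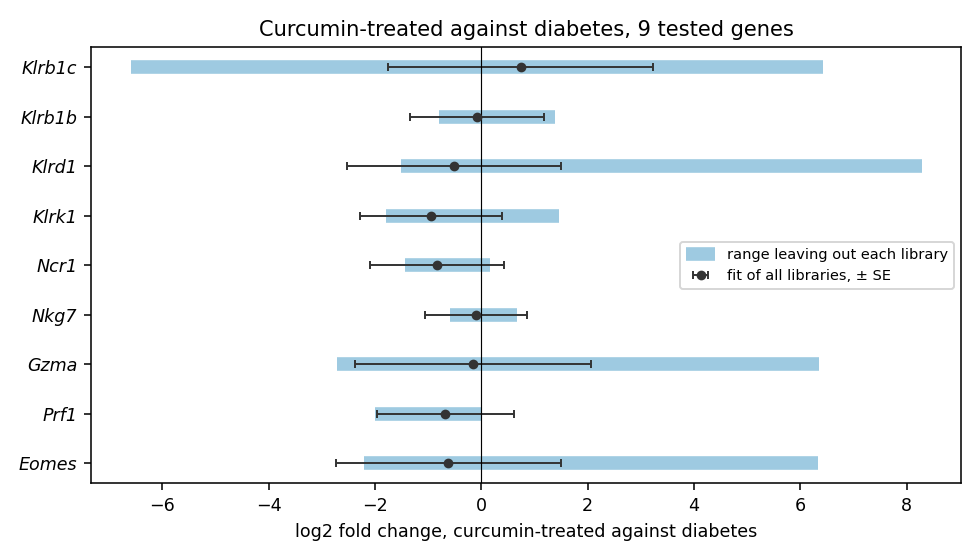
Log2 fold changes of the 9 tested genes, curcumin-treated against diabetes, with SE (points and whiskers) and the range of the fold change when each of the 4 diabetes and curcumin-treated libraries is left out in turn (blue bars). The bar of Klrb1c runs from −6.59 to 6.43, and the upper ends for Klrd1, Gzma and Eomes are fitted against a library at 0.

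For diabetes against control, 8 of the 9 tested genes had positive fold changes and Klrb1c a negative one, and none passed the test. Klrb1c had 103 ± 143 CPM (SD, n = 2) in diabetes and 217 CPM in the single control, a log2 fold change of −1.04 ± 2.94. Without diabetes 2 this was −0.05, and without diabetes 1 it was −6.73. Nkg7 had 2.97 ± 1.48 CPM against 0.333, a log2 fold change of 3.32 ± 1.45, and both diabetes libraries were above the control. Klrb1b stood at 1.60 ± 1.69 and Prf1 at 1.60 ± 1.71. Without diabetes 2 the values were 2.56 for Nkg7, 0.13 for Klrb1b and 1.12 for Prf1, and that of Klrd1 turned from 0.90 to −7.90, fitted against diabetes 1 at 0.

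Klrk1, Ncr1, Gzma and Eomes were at 0 in the control, so their fold changes are given against 3 counts in that library. The control is an epididymis-rich library, and adipocyte genes summed to 591 CPM there, 142 in diabetes 1 and 33026 in diabetes 2. The part of tissue content in these fold changes was not tested. Mean levels in diabetes were at least 26.6-fold higher for Klrk1, 5.85-fold for Ncr1, 3.02-fold for Gzma and 4.08-fold for Eomes. Diabetes 2 carried these bounds. They cover counting error alone and hold only if a 0 in control 1 stands for at most 3 counts. In diabetes 1 alone they were 5.66-fold for Klrk1 and 3.19-fold for Ncr1, and Gzma and Eomes were at 0 there, as in the control. The median of the 9 was 3.32 as fitted and 1.60 with these genes at their bounds, against 0.07 for all tested genes. Libraries of the groups did not overlap for 6 of the 10 genes and for 51.8% of the genes tested. The edgeR test called 0 genes (0.0%), and each adjusted p was 1. An unadjusted p under 0.05 was reached by 440 genes, Klrk1 and Ncr1 among them.

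For curcumin-treated against control, Klrb1c had 150 ± 211 CPM (SD, n = 2) against 217 CPM, a log2 fold change of −0.29 ± 3.00. Without curcumin-treated 2 it was −7.63, and without curcumin-treated 1 it was 0.70. The other 8 tested genes had positive fold changes, among them Nkg7 at 3.22 ± 1.44, Klrb1b at 1.52 ± 1.68, Prf1 at 0.92 ± 1.67 and Klrd1 at 0.38 ± 2.51. That of Prf1 was −0.41 without curcumin-treated 1. Of all tested genes, 57.3% had a positive fold change in this comparison. Against 3 counts in the control, mean levels were at least 14.9-fold higher for Klrk1, 3.37-fold for Ncr1, 3.13-fold for Gzma and 3.02-fold for Eomes. The bounds for Gzma and Eomes rest on curcumin-treated 1, since 2 and 4 counts in curcumin-treated 2 (0.0471 and 0.0943 CPM) lie below the 0.111 CPM that 3 counts make in the control. In curcumin-treated 2 alone the bounds were 11.0-fold for Klrk1 and 3.19-fold for Ncr1. These bounds, too, cover counting error alone and hold only if a 0 in control 1 stands for at most 3 counts.

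Libraries of these 2 groups did not overlap for 7 of the 10 genes and for 58.6% of the genes tested. The edgeR test called 0 genes (0.0%) with each adjusted p at 1. An unadjusted p under 0.05 was reached by 112 genes, Klrk1 among them. The median fold change of the 9 genes was 3.22 as fitted and 1.59 with bounds, against 0.17 for all tested genes. Both comparisons with the control share its single library, and the diabetes libraries also enter the curcumin comparison, so the 3 are not independent.

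DESeq2 called 95 genes for curcumin-treated against diabetes (0.318%), 58 for diabetes against control (0.194%) and 77 for curcumin-treated against control (0.258%), and none of the genes of the set that had a DESeq2 adjusted p. That was 6 of the 9 in the first 2 of these comparisons, where Ncr1, Gzma and Eomes had none, and 9 of 9 in the last. Klrb1a and Zap70 had fold changes of 0.31 ± 2.53 and 0.59 ± 1.56 for curcumin-treated against diabetes, with edgeR adjusted p of 0.989 and 0.961.

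The wider lists gave no calls in any comparison. For diabetes against control, fold changes were positive for 22 of 24 tested receptors, 7 of 12 effectors, 8 of 9 transcription factors and 8 of 11 adaptors, and for 52.4% of all tested genes. T cell markers were positive for 15 of 16, macrophage markers for 10 of 10 and adipocyte markers for 14 of 14, and their part in the natural killer gene differences was not tested. For curcumin-treated against diabetes, fold changes were negative for 21 of 24 receptors (median −0.95), 6 of 12 effectors, 5 of 9 transcription factors and 6 of 11 adaptors. Of all tested genes, 48.3% were negative. Macrophage markers were negative for 10 of 10 and adipocyte markers for 13 of 14, T cell markers for 8 of 16, B cell markers for 1 of 6 and smooth muscle markers for 0 of 10. Their part in the differences was not tested here either.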

How the data were processed

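Poly-A RNA of 5 libraries was sequenced as paired 150-base reads after a strand-marking kit, per the labels' protocols. The authors deposited raw whole-number counts per Ensembl gene, not normalised. FastQC, featureCounts and GRCm39 are named in the submitters' processing notes. Aligner, annotation release and strand setting: not given in the sources used here. Symbols matched 51486 of 78334 gene IDs (65.7%).

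CPM were computed by library total. Intervals are 95% exact Poisson intervals and cover counting error only. The 3 comparisons were fitted in 1 model of 5 libraries with edgeR 4.0.16 (quasi-likelihood, robust, newer dispersion method, filterByExpr, TMM; R 4.3.3), with 2 residual degrees of freedom, an adjusted p threshold of 0.05 and a biological coefficient of variation of 1.07. The control, with 1 library, was taken to have the spread of the other groups. SEs were obtained as fold change divided by the root of F. Simulated counts served only as a check of the fitting steps. Power and error rate at a biological coefficient of variation of 1.07 were not tested. Alternatives were other scalings, no low-count filter, DESeq2 1.42.0, limma-voom (limma 3.58.1), a replicate block and leaving out each replicated library, and, chosen after seeing the data, crossed block numbers and edgeR's older method.

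The 10 genes and the 13 gene lists were chosen with earlier results of these data known. Of 171 list genes 168 were found, and Raet1a, Raet1b and Raet1c were not. Besides the 10 genes, those named were the 10 most like Klrb1c, up to 3 per list with the highest CPM in any library, and the 5 neighbours on each side. Others were named after their values were seen.

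Exon lengths and transcripts came from GENCODE vM21 and upstream sequences from RefSeq GRCm38.p6, neither on the files' build, so no coordinates were given to counts. RefSeq windows (250 bases before to 50 after a start) were found for 9 of the 10 genes, not for Klrd1. Alignments used Biopython 1.88 with scores of 2 for a match, −3 for a mismatch, −5 for opening and −2 for extending a gap.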

Additional observations from a re-analysis of the deposited data

How the results depend on the processing

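The count of genes called stayed at 0 in edgeR under other scalings, without the low-count filter, with the older method, in limma-voom and when any replicated library was left out. With DESeq2 it was 95 for curcumin-treated against diabetes, 58 for diabetes against control and 77 for curcumin-treated against control; the cause was not tested. None of the 9 tested genes crossed the threshold where an alternative gave an adjusted p, the smallest being 0.296. DESeq2 gave none for Ncr1, Gzma and Eomes in the first 2 comparisons. Of the 10 genes most like Klrb1c, 9 were shared with TMM scaling, 10 with a mean of at least 10 CPM and 3 with a prior of 0.5 CPM.

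Whether the replicate numbers pair the libraries is not stated. Deviations of same-numbered libraries correlated at −0.41 over 29855 genes. As diabetes 1 and curcumin-treated 2 are epididymis-rich and diabetes 2 and curcumin-treated 1 are not, this value cannot decide the pairing. With the replicate block 0 genes were called, and the curcumin-treated against diabetes fold changes became −0.0646 for Klrb1c, 0.26 for Klrb1b, 2.05 for Klrd1, 0.0089 for Nkg7, 0.58 for Gzma and 0.67 for Eomes. With crossed numbers 0 were called, and the block gave −0.0563, 0.23, 1.18, 0.0073, 0.33 and 0.18 for these genes. In the same comparison limma-voom gave 0.31 for Klrb1b, 2.34 for Klrd1, 0.0388 for Nkg7, 0.74 for Gzma and 0.88 for Eomes, and scaling to the library total gave 0.0117 for Gzma. For diabetes against control limma-voom gave −1.96 for Klrd1. The cause of these reversals was not tested.

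With each library left out in turn, curcumin-treated against diabetes fold changes ran from −6.59 to 6.43 for Klrb1c, −0.80 to 1.39 for Klrb1b, −1.52 to 8.28 for Klrd1, −1.80 to 1.46 for Klrk1, −1.43 to 0.17 for Ncr1, −0.59 to 0.66 for Nkg7, −2.72 to 6.35 for Gzma and −2.21 to 6.32 for Eomes. For diabetes against control Klrd1 ran from −7.90 to 1.89. For curcumin-treated against control Klrb1c ran from −7.63 to 0.70 and Prf1 from −0.41 to 1.59. Gzma and Eomes had no value for diabetes against control without diabetes 2, since both groups were then at 0.

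Scaling to the library total moved the median of all genes from 0.17 to 0.03 for curcumin-treated against control. Of the 50 CPM values of the set, 47 stayed within their Poisson interval under TMM scaling and 37 without the 100 most abundant genes, which raised values 1.27 to 1.42 times. The 9 genes other than Klrb1c had at most 134 counts in a library, which limits what depth can resolve.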

Other observations

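Ligands of natural killer receptors were measured beside the receptors, and 15 of the 18 listed had a count. H2-T23, whose product presents peptides to the CD94 receptor, had 82.8 CPM in diabetes 2 and 112 in curcumin-treated 1 against 58.7 in control 1, 30.5 in diabetes 1 and 49.9 in curcumin-treated 2. Clec2d, whose product is recognised by the Klrb1b receptor, had 58.4, 30.6, 15.2, 5.54 and 13.1 CPM in the same order of libraries. Both were higher in diabetes 2 and curcumin-treated 1 than in the other 3 libraries. That order was met by 7 of the 15 ligands and by 15.1% of all genes with a count. Nectin2 was lowest in diabetes 2, at 12.8 CPM against 27.8 to 52.8 in the others. Fold changes for diabetes against control were positive for 9 of 11 tested ligands and for 52.4% of all tested genes. None of these ligands was called by edgeR in any comparison, the smallest adjusted p being 0.852 for curcumin-treated against diabetes.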
